A study of Mus musculus with 26 samples.

Results

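Endothelial and angiogenic genes were followed in the lungs of mice exposed to multiwalled carbon nanotubes. The set holds 46 genes, chosen as markers or regulators of blood and lymph vessels and found on the arrays through the RefSeq accession of each probe. The choice was made with earlier results of these data known. All 46 were among the 20660 genes with a symbol on the array. Of the 46, 44 were well above background often enough to be tested, within a table of 22950 features. The set has 17 pan-endothelial genes, 8 capillary, 5 arterial, 6 venous and adhesion and 4 lymphatic genes, and 6 angiogenic ligands or secreted factors.

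Lung RNA came from MutaMouse animals, a strain bred with a mutation reporter transgene, at an age of about 12 weeks. There were 5 groups of 5 animals. NM-401 high and NM-401 low animals were instilled into the trachea with the multiwalled nanotube NM-401 in mouse serum, at 128 and 42.7 µg per mouse. Mitsui high and Mitsui low animals were given the nanotube Mitsui XNRi-7 at the same doses. Each animal was dosed 4 times, once a week, and killed 56 days after the last of these doses. Whether a dose is the amount per instillation or the total is not stated. The design names a vehicle control, while the treatment protocol has the controls gavaged with olive oil only, so the exposed groups may differ from the control in instillation and serum as well as in nanotubes, and these cannot be told apart. Sex is female in the sample labels, against male in the design text. RNA was taken from random sections of the lung, so each value is a mixture of cell types.

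Each value is the log2 ratio of an animal's RNA (Cy5) to 1 common mouse reference RNA (Cy3). A gene's ratio can be set against its own ratio in other animals, and not against the ratio of another gene. On the 26 arrays, the Cy5 signal cleared the scanner's background test for 47.2% to 63.2% of probes. The defining endothelial genes Pecam1, Tek, Cldn5 and Flt1 cleared it in all 25 animals and Cdh5 in 24. Alveolar type 2 and type 1 markers cleared it in all animals for 10 of 10 and 9 of 9 genes. Prox1, the transcription factor that defines lymphatic endothelium, was well above background in 0 of 25 animals. Sele, an adhesion receptor of inflamed endothelium, was so in 2. Neither was tested. For 5 members (Ackr1, Emcn, Erg, Lyve1 and Sox17) the reference signal was well above background in 0 animals, so their ratios rest on the Cy5 signal over a floor. A reference signal well above background was found in 1 animal for Gja5 and Calcrl, 2 for Tek and Flt4 and 5 for Cdh5. For Aplnr and Dll4 it was found in 7 and 8 animals, so these ratios too rest largely on Cy5.

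The lung holds the densest capillary bed of the body. Its capillaries have general cells, which carry Gpihbp1, Plvap and Aplnr and can renew the bed, and thin cells that face the air, known as aerocytes, which carry Car4, Ednrb and Apln. VEGF-A from epithelium acts through Kdr, while Flt1 binds the same ligand and limits it. Angiopoietins from pericytes and endothelium act through the receptor Tek and its partner Tie1. Notch signalling through Dll4 and Hey1 sets arterial identity, and veins and venules carry Ackr1 and Selp, which handle chemokines and leukocytes. ETS-family factors, among them the member Erg, bind a GGAA core in the control regions of many endothelial genes.

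Promoters from RefSeq on GRCm38.p6 were read for 29 of the 46 members, as the bases before the start site. The letters AGGAAG, an ETS core, were searched on both strands, so CTTCCT counts as well. A match stood in 15 of 35 member promoters, from 14 genes, and in 29.5% of 32851 promoters of all genes in windows of the same length. Shown are 3 members that were lower and 2 that were higher in exposed lungs, with matches in capitals, 5′ to 3′ on the strand of the gene.
Esm1, chr13:113209409-113209658, plus strand: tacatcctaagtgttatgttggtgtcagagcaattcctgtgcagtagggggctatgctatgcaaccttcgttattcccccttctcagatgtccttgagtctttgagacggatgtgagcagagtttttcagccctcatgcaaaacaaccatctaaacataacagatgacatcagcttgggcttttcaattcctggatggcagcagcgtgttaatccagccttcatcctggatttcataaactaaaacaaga
Apln, chrX:48034854-48035103, minus strand: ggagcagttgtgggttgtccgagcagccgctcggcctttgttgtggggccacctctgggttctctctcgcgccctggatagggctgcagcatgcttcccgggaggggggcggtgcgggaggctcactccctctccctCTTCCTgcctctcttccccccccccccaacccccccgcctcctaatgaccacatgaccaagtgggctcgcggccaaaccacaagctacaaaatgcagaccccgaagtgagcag
Flt1, chr5:147726012-147726261, minus strand: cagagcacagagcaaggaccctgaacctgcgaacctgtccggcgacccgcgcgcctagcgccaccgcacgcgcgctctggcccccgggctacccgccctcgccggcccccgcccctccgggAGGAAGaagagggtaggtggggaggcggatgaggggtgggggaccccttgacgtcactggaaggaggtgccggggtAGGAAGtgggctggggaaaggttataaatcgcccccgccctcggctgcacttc
Ackr1, chr1:173333504-173333753, minus strand: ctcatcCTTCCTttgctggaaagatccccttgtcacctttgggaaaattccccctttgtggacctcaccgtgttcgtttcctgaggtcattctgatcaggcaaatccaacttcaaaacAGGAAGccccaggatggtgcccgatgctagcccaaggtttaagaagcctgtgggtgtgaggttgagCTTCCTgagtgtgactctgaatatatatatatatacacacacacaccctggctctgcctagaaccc
Selp, chr1:164115014-164115263, plus strand: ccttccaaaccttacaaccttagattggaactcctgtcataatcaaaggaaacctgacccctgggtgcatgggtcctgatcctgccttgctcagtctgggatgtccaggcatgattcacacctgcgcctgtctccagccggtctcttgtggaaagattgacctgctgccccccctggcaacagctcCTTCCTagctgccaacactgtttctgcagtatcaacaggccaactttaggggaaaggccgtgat
Matches stood in the window of genes that were lower and of genes that were higher. Flt1 had 2, beginning 129 and 53 bases before the start. Ackr1 had 3, at 244, 132 and 66 bases. Apln had 1 at 113 bases and Selp 1 at 64 bases. No match was found in the Esm1 window, which says only that these letters are not there. The hypoxia core ACGTG was in 1 member promoter and in 16.6% of all.

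Most members were lower in exposed lungs. In NM-401 high against control lungs, 29 of 44 tested members fell and 3 rose at a limma adjusted p under 0.05, where 16.4% of all features fell and 18.4% rose (34.8% called in all). In NM-401 low, 18 fell and 0 rose, against 8% and 8.95% of all features (16.9% in all). In Mitsui high, 20 fell and 2 rose, against 11% and 12.7% of all features (23.7% in all). In Mitsui low, 21 fell and 1 rose, against 10.4% and 10.6% of all features (21% in all). Ackr1, among the members that rose in NM-401 high and Mitsui high, met the filter only through the exposed groups. The median difference of the tested members was -0.49, -0.31, -0.27 and -0.39 on the log2 scale in the same 4 comparisons, and the median of all features was between -0.00468 and -0.001044. In bulk tissue, fewer endothelial cells and less RNA per cell cannot be told apart.

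Fewer members were separated from the controls in every animal. In NM-401 high, 22 members had all 5 animals below all 5 controls and 2 had all above, against 10.5% and 12% of all features. In Mitsui low, 20 members lay below and 1 above, against 7.59% and 8.45%. In NM-401 low, 12 members lay below and 0 above, against 5.06% and 6.53% of all features. In Mitsui high, 12 lay below and 1 above, against 6.36% and 8.22%. The 4 comparisons share 1 set of control animals, so their counts are not independent of each other.

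**Figure D1:**
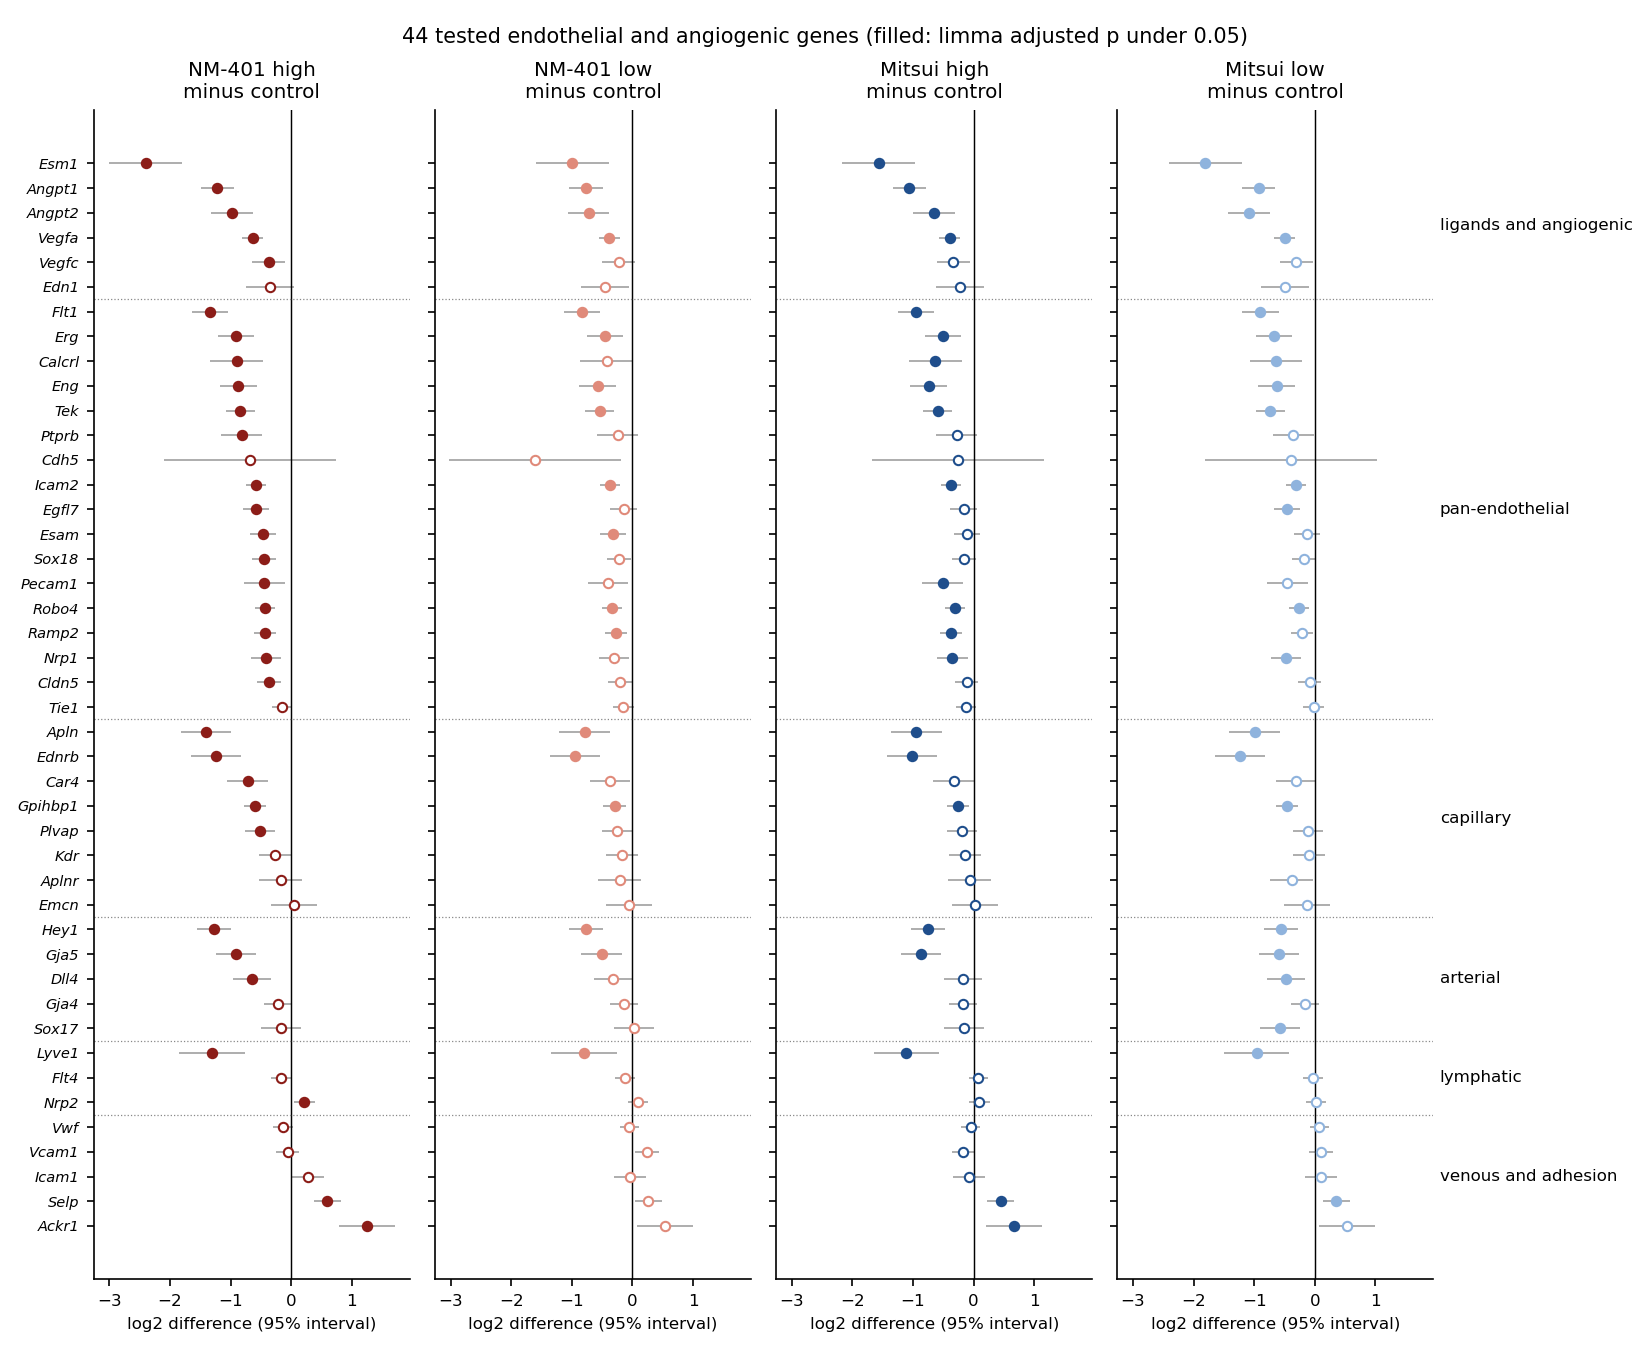
Log2 difference from the control of the 44 tested members, by vessel class, in NM-401 high, NM-401 low, Mitsui high and Mitsui low lungs (n = 5 animals each, grey lines are 95% intervals, filled points have a limma adjusted p under 0.05). Esm1 at -2.40 and Ackr1 at 1.26 in NM-401 high are the extremes of that panel, and the wide interval of Cdh5 comes with 1 failed spot in NM-401 low.

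Among the members, 16 fell in all 4 exposures by the probe used: Flt1, Tek, Vegfa, Esm1, Apln, Angpt1, Angpt2, Eng, Erg, Ednrb, Gja5, Robo4, Lyve1, Icam2, Hey1 and Gpihbp1. When each animal was left out in turn, some of these calls were lost: in NM-401 low those of Lyve1 (7 of 25 fits), Gpihbp1 (4), Erg (3), Esm1 (2) and Gja5 (2), in Mitsui high that of Gpihbp1 (4) and in Mitsui low that of Robo4 (1). The NM-401 low calls of all 5 of these genes were lost without animal 5 of that group. Nrp1, Ramp2 and Calcrl fell in 3, and Pecam1, Esam, Egfl7 and Dll4 in 2. Calls of Esam and Ramp2 in NM-401 low, Nrp1, Pecam1 and Calcrl in Mitsui high, and Calcrl and Dll4 in Mitsui low were each lost in 4 to 7 of the 25 fits. A further 7 fell in 1 exposure (Vegfc, Cldn5, Sox17, Sox18, Car4, Plvap and Ptprb), and 14 passed the threshold as lower in none.

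The slide of an array is a batch that held several groups. NM-401 high had no array on slide 2. Within slides, with 1 or 2 arrays per group on each, the median difference over all tested members ran from -0.60 to -0.54 in NM-401 high, -0.53 to -0.11 in NM-401 low, -0.46 to -0.13 in Mitsui high and -0.50 to -0.21 in Mitsui low. With slide as a block the counts of called members were 33, 20, 23 and 26 in NM-401 high, NM-401 low, Mitsui high and Mitsui low. The counts over all features under this block are not given here, so a higher member count is not read as a result. Under median centring of each array in place of loess, the counts fell to 3, 0, 0 and 0, while the median of all features moved to 0.17, -0.11, -0.13 and -0.14. Relative to that shift, the members' median difference was -0.38, -0.29, -0.29 and -0.40 under median centring.

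Among the ligands and secreted factors, 5 of 6 fell in NM-401 high, and 4 of 6 in each of the other exposures. The shares of all features that fell were 16.4%, 8%, 11% and 10.4% in NM-401 high, NM-401 low, Mitsui high and Mitsui low. Esm1, endocan, is a proteoglycan secreted by endothelial tip cells under VEGF. It had log2 ratios of -0.26, 0.51, -0.17, 0.25 and 0.06 in NM-401 high, 1.54, 1.23, 1.66, 2.66 and 0.35 in NM-401 low, 1.096, 1.65, 1.13, 0.64 and 0.04 in Mitsui high, 0.53, 0.42, 1.01, 0.88 and 0.53 in Mitsui low lungs, against 2.50, 2.60, 2.20, 2.62 and 2.48 in control lungs. All animals of NM-401 high, Mitsui high and Mitsui low lay below all controls, and in NM-401 low 1 animal, at 2.66, lay above them. Esm1 was 5.27-fold lower in NM-401 high (log2 difference -2.40 ± 0.29 SE, limma adjusted p = 9.01e-07), and differed by -0.99, -1.56 and -1.805 in NM-401 low, Mitsui high and Mitsui low (adjusted p = 0.021, 0.000396 and 0.000113). The NM-401 low call was lost without animal 2 or animal 5 of that group, where the adjusted p reached 0.0758.

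The angiopoietins fell in every exposure. Angpt1, the pericyte-derived agonist of Tek, differed by -1.22 ± 0.13 (SE) in NM-401 high, -0.77 in NM-401 low, -1.06 in Mitsui high and -0.93 in Mitsui low. Angpt2, the endothelial antagonist stored for release, differed by -0.98 ± 0.17, -0.72, -0.66 and -1.08 in the same order. For both genes all 20 exposed animals lay below all controls. Vegfa, the main endothelial growth factor, differed by -0.64 ± 0.08 in NM-401 high (adjusted p = 2.71e-06), and its second probe gave -1.15. In the other exposures the Vegfa difference lay between -0.50 and -0.38. Vegfc, the lymphatic growth factor, fell in NM-401 high alone among the 4 tests (-0.37 ± 0.13, adjusted p = 0.0281), a call that was lost in 5 of the 25 fits that leave out 1 animal. Edn1, the vasoconstrictor endothelin, gave -0.35, -0.45, -0.23 and -0.48 and passed the threshold in none.

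Receptors of these ligands did not all move together. Flt1, the decoy receptor for VEGF-A, had log2 ratios of 2.98, 3.38, 2.93, 3.47 and 2.84 in NM-401 high, 3.75, 3.26, 3.65, 3.94 and 3.54 in NM-401 low, 3.40, 3.85, 3.60, 3.47 and 3.20 in Mitsui high, 3.90, 3.26, 3.52, 3.70 and 3.42 in Mitsui low lungs, against 4.30, 4.52, 4.33, 4.71 and 4.42 in control lungs. All 20 exposed animals lay below all controls. Flt1 was 2.53-fold lower in NM-401 high (log2 difference -1.34 ± 0.145 SE, limma adjusted p = 1.81e-07), and differed by -0.83, -0.95 and -0.90 in NM-401 low, Mitsui high and Mitsui low.

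Kdr, the main signalling receptor for VEGF-A, was read by 2 probes that disagreed in size. The brighter probe, used here, gave -0.27 ± 0.13 (SE) in NM-401 high and between -0.17 and -0.10 in the other exposures, none past the threshold. The other gave -0.88 in NM-401 high and -0.51, -0.54 and -0.55 in NM-401 low, Mitsui high and Mitsui low, each with an adjusted p under 0.05. Whether Kdr passed the threshold therefore depended on the probe. Flt4, the receptor for Vegfc, lay between -0.17 and 0.08 and passed it in none.

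Tek, the angiopoietin receptor, differed by -0.84 ± 0.11 (SE) in NM-401 high (adjusted p = 4.32e-06), -0.54 in NM-401 low, -0.59 in Mitsui high and -0.73 in Mitsui low. With the ratios of the scanner software in place of loess, Tek turned to 0.22 in NM-401 high and 0.07 in Mitsui low. Tie1, its orphan partner, lay between -0.15 and -0.02 and passed the threshold in none. Ptprb, a phosphatase that restrains Tek, fell in NM-401 high by the probe used (-0.82 ± 0.16), and by its second probe in all 4 exposures (-1.12, -0.65, -0.78 and -0.81). Nrp1, a co-receptor for VEGF-A, fell in NM-401 high (-0.41 ± 0.12), Mitsui high and Mitsui low.

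By the probes used, 5 of 8 capillary members fell in NM-401 high and 3 of 8 in each other exposure. The shares of all features that fell were 16.4%, 8%, 11% and 10.4% in NM-401 high, NM-401 low, Mitsui high and Mitsui low. These member counts depend on the probe, since Kdr and Plvap each had a second probe that passed in more exposures. Ednrb, the endothelin B receptor of aerocytes, had log2 ratios of 1.72, 2.61, 1.97, 2.52 and 1.78 in NM-401 high, 2.25, 1.93, 2.83, 2.93 and 2.10 in NM-401 low, 2.09, 2.69, 2.35, 2.34 and 2.21 in Mitsui high, 2.19, 1.75, 2.23, 1.95 and 2.48 in Mitsui low lungs, against 3.19, 3.02, 3.38, 3.56 and 3.63 in control lungs. All 20 exposed animals were below all controls. Ednrb was 2.36-fold lower in NM-401 high (log2 difference -1.24 ± 0.20 SE, limma adjusted p = 3.18e-05) and 2.35-fold lower in Mitsui low, with -0.95 and -1.017 in NM-401 low and Mitsui high.

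Apln, the peptide ligand apelin, had log2 ratios of 0.38, 0.46, 0.13, 0.87 and 0.52 in NM-401 high, 0.98, 0.27, 1.499, 1.56 and 1.14 in NM-401 low, 0.66, 1.36, 1.47, 0.70 and 0.45 in Mitsui high, 0.91, 0.74, 0.84, 0.88 and 1.05 in Mitsui low lungs, against 1.82, 1.74, 2.16, 1.73 and 1.94 in control lungs. The exposed animals again lay below all controls in each group. Its difference was -1.41 ± 0.20 (SE) in NM-401 high (limma adjusted p = 8.56e-06), -0.79 in NM-401 low, -0.95 in Mitsui high and -0.99 in Mitsui low. Its receptor Aplnr gave -0.17, -0.21, -0.07 and -0.38 and passed the threshold in none. In Mitsui low the 5 Aplnr values, from 2.70 to 3.06, still lay below all controls, from 3.09 to 3.39.

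The other aerocyte gene, Car4 (carbonic anhydrase 4), fell in NM-401 high (-0.72 ± 0.16 SE, adjusted p = 0.00103) and lay between -0.37 and -0.31 elsewhere. Of the general capillary genes, Gpihbp1, which docks lipoprotein lipase, fell in all 4 exposures by -0.59 ± 0.09 in NM-401 high, -0.30 in NM-401 low, -0.27 in Mitsui high and -0.46 in Mitsui low. Plvap, the diaphragm protein of fenestrae and caveolae, fell in NM-401 high (-0.515 ± 0.12) and gave -0.25, -0.20 and -0.12 in NM-401 low, Mitsui high and Mitsui low. Its second probe gave -0.58, -0.52, -0.59 and -0.48 in the 4 exposures and passed the threshold in NM-401 high and Mitsui high. Emcn, a capillary and venous sialomucin, stayed within 0.13 of 0 in every exposure, with controls from 2.98 to 3.90.

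Arterial members fell for 3 of 5 in NM-401 high, 2 in NM-401 low, 2 in Mitsui high and 4 in Mitsui low. In the same order, the shares of all features that fell were 16.4%, 8%, 11% and 10.4%. Hey1, a transcriptional repressor induced by Notch, had log2 ratios of 2.49, 2.87, 2.50, 2.45 and 2.68 in NM-401 high, 3.06, 3.03, 3.25, 3.52 and 2.66 in NM-401 low, 2.86, 3.63, 3.19, 3.09 and 2.82 in Mitsui high, 3.25, 3.45, 3.27, 3.22 and 3.32 in Mitsui low lungs, against 3.69, 3.85, 3.89, 4.02 and 3.88 in control lungs. No exposed animal reached the control range. Hey1 was 2.41-fold lower in NM-401 high (log2 difference -1.27 ± 0.14 SE, limma adjusted p = 1.65e-07), and differed by -0.76, -0.75 and -0.56 in NM-401 low, Mitsui high and Mitsui low.

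Gja5, an arterial connexin, fell in all 4 exposures (-0.91 ± 0.16 SE in NM-401 high, -0.51 in NM-401 low, -0.87 in Mitsui high and -0.59 in Mitsui low). Gja4, the other arterial connexin, lay between -0.22 and -0.14 and passed the threshold in none. Dll4, the Notch ligand of arteries and tip cells, fell in NM-401 high (-0.65 ± 0.15) and Mitsui low (-0.47). Sox17, an arterial transcription factor, fell in Mitsui low (-0.57 ± 0.16, adjusted p = 0.0118), while NM-401 high gave -0.17, NM-401 low 0.03 and Mitsui high -0.15. The difference between NM-401 low and Mitsui low for Sox17 was 0.60 ± 0.16 with an adjusted p of 0.383.

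Of the 5 tested venous and adhesion members, 0 fell in any exposure. Those that rose were 2 in NM-401 high, 0 in NM-401 low, 2 in Mitsui high and 1 in Mitsui low. In the same order, 16.4%, 8%, 11% and 10.4% of all features fell and 18.4%, 8.95%, 12.7% and 10.6% rose. Among 5 genes, 0 that fell is near these shares and is not read as a trait of the class. The counts hold for these 5 genes and not for all venous genes. Outside the set, the venous factor Nr2f2 fell by -0.69, -0.37, -0.46 and -0.41 in the same order. Ackr1, the decoy receptor of venules that carries chemokines across the wall, had log2 ratios of 1.021, 1.26, 2.01, 1.57 and 2.05 in NM-401 high, 0.35, 1.28, 1.36, 0.70 and 0.65 in NM-401 low, 1.21, 0.80, 0.58, 1.07 and 1.27 in Mitsui high, 0.90, 0.32, 0.85, 0.97 and 1.21 in Mitsui low lungs, against 0.18, 0.97, 0.03, 0.32 and 0.12 in control lungs. In NM-401 high all 5 animals were above all controls, and the other exposed groups overlapped with them. Ackr1 was 2.39-fold higher in NM-401 high (log2 difference 1.26 ± 0.22 SE, limma adjusted p = 0.000103) and 1.58-fold higher in Mitsui high (adjusted p = 0.0334), with 0.54 and 0.52 in NM-401 low and Mitsui low. Its spot was well above background in 3 of 5 controls, so the control level is near the floor of the array, and Ackr1 met the filter only through the exposed groups. Its place among the genes that rose is therefore a description, and Selp was the other venous gene called. The Mitsui high call was lost in 7 of the 25 fits that leave out 1 animal.

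Selp, P-selectin, which tethers rolling leukocytes and is also carried by platelets, had log2 ratios of 0.23, 0.85, 0.42, 0.21 and 0.28 in NM-401 high, -0.32, 0.21, 0.18, 0.22 and 0.03 in NM-401 low, 0.31, 0.35, 0.07, 0.26 and 0.24 in Mitsui high, 0.27, -0.01, 0.12, 0.10 and 0.30 in Mitsui low lungs, against -0.25, -0.03, -0.29, -0.19 and -0.24 in control lungs. All animals of NM-401 high, Mitsui high and Mitsui low were above all controls, and 4 of 5 in NM-401 low were. Selp rose by 0.60 ± 0.11 (SE) in NM-401 high (limma adjusted p = 0.000153), 0.45 in Mitsui high and 0.355 in Mitsui low, with 0.26 in NM-401 low (adjusted p = 0.106). The leukocyte ligands on endothelium did not pass the threshold: Icam1 lay between -0.07 and 0.27, and Vcam1 between -0.17 and 0.24. Vwf, the clotting factor stored with P-selectin, lay between -0.14 and 0.08.

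**Figure D2:**
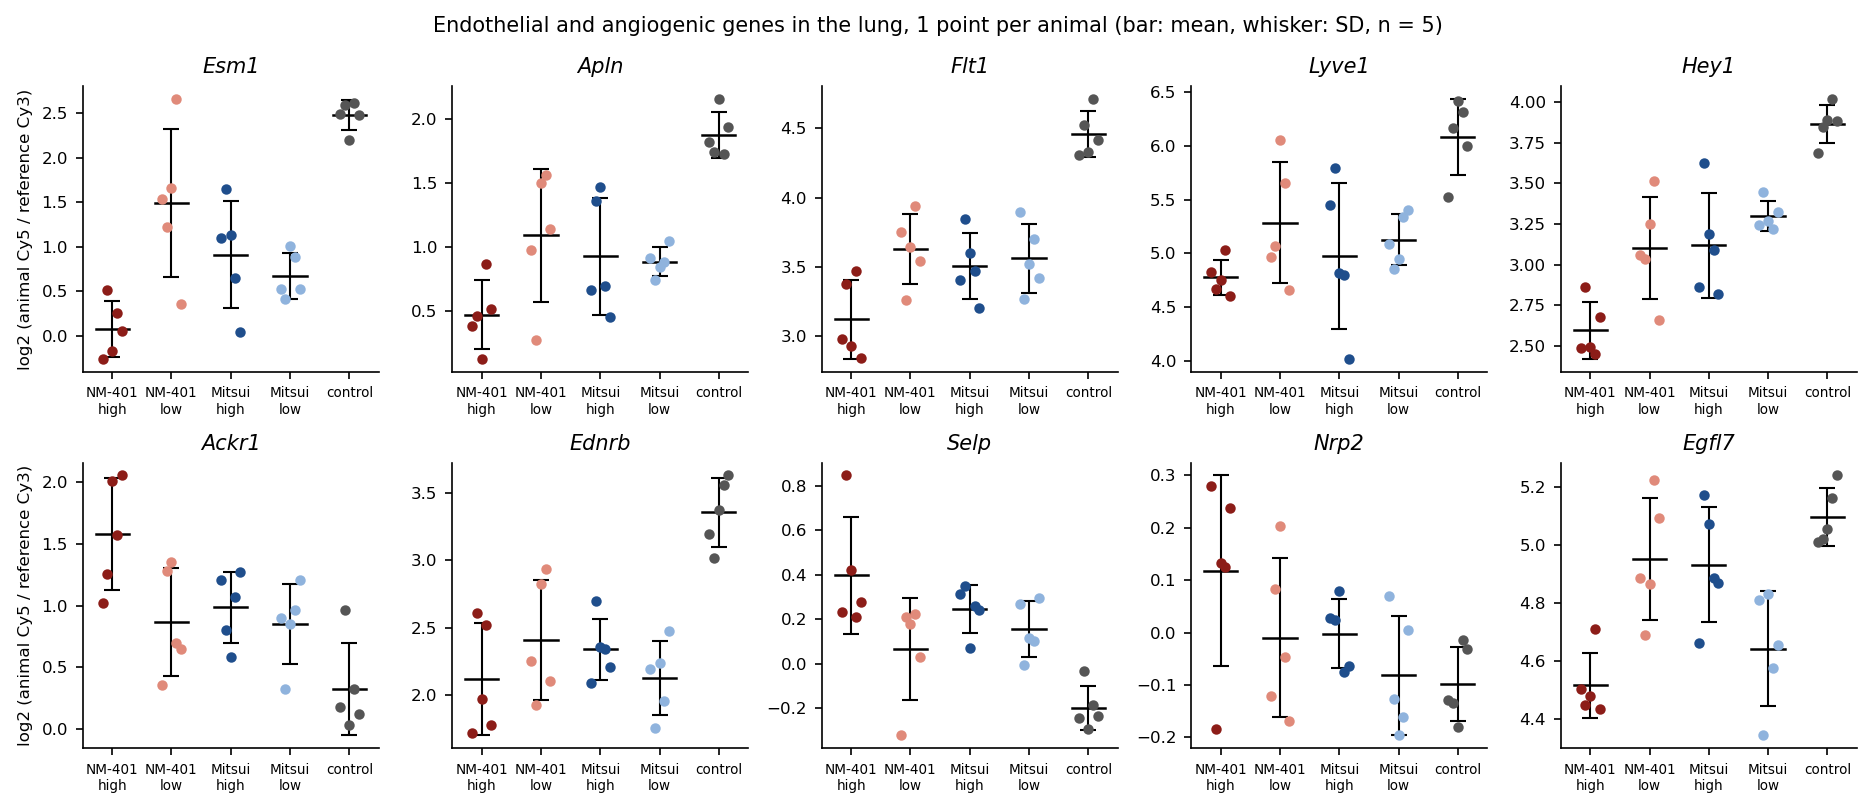
Log2 ratio of lung RNA over the common reference for 10 members in each animal of NM-401 high, NM-401 low, Mitsui high, Mitsui low and control (points are animals, bars are means, whiskers are SD, n = 5; the vertical scale differs by gene). Flt1, Hey1, Ednrb and Apln lie below the controls in all exposed animals, Ackr1 and Selp lie above them in NM-401 high, and Nrp2 overlaps.

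Of the lymphatic members, 1 of 3 tested fell in each exposure, and it was Lyve1 each time. The shares of all features that fell were 16.4%, 8%, 11% and 10.4% in NM-401 high, NM-401 low, Mitsui high and Mitsui low. Lyve1, a hyaluronan receptor of lymphatic endothelium that some lung macrophages also carry, had log2 ratios of 4.83, 4.67, 4.75, 5.03 and 4.60 in NM-401 high, 4.97, 5.07, 6.06, 5.66 and 4.66 in NM-401 low, 5.45, 5.79, 4.82, 4.80 and 4.02 in Mitsui high, 5.08, 4.86, 4.95, 5.33 and 5.41 in Mitsui low lungs, against 5.52, 6.17, 6.42, 6.32 and 6.004 in control lungs. NM-401 high and Mitsui low animals lay below all controls, while 2 animals of NM-401 low and 1 of Mitsui high reached the control range. The Lyve1 difference was -1.31 ± 0.26 (SE) in NM-401 high (limma adjusted p = 0.000351), -0.80 in NM-401 low, -1.11 in Mitsui high and -0.96 in Mitsui low. The NM-401 low call for Lyve1 was lost in 7 of the 25 fits that leave out 1 animal.

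Nrp2, the co-receptor for Vegfc, had log2 ratios of 0.28, -0.18, 0.13, 0.13 and 0.24 in NM-401 high, -0.12, 0.08, 0.20, -0.05 and -0.17 in NM-401 low, 0.03, 0.02, 0.08, -0.08 and -0.06 in Mitsui high, 0.07, -0.13, -0.20, -0.16 and 0.01 in Mitsui low lungs, against -0.13, -0.14, -0.18, -0.01 and -0.03 in control lungs. In NM-401 high 4 of 5 animals lay above all controls and 1, at -0.1835, lay just below the lowest control at -0.1796. Nrp2 passed the threshold there (0.22 ± 0.08 SE, limma adjusted p = 0.0413), and lost it with slide as a block (adjusted p = 0.0568) and with the authors' matrix (0.0691). The call was also lost in 7 of the 25 fits that leave out 1 animal. A second Nrp2 probe gave 0.53 in NM-401 high (limma adjusted p = 0.000862) and passed the threshold in that exposure alone. With Prox1 not measured and Flt4 past the threshold in none, the fall in the lymphatic class was that of 1 gene.

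Pan-endothelial members fell for 15 of 17 in NM-401 high, 8 in NM-401 low, 10 in Mitsui high and 9 in Mitsui low. In the same order, the shares of all features that fell were 16.4%, 8%, 11% and 10.4%. Egfl7, a secreted matrix protein of endothelium, had log2 ratios of 4.505, 4.45, 4.48, 4.71 and 4.44 in NM-401 high, 4.89, 4.69, 4.87, 5.23 and 5.09 in NM-401 low, 4.67, 5.17, 5.07, 4.89 and 4.87 in Mitsui high, 4.81, 4.34, 4.83, 4.58 and 4.66 in Mitsui low lungs, against 5.01, 5.02, 5.05, 5.16 and 5.24 in control lungs. NM-401 high and Mitsui low animals lay below all controls, and the NM-401 low and Mitsui high animals overlapped with them. Its difference was -0.58 ± 0.105 (SE) in NM-401 high (limma adjusted p = 0.000123) and -0.45 in Mitsui low (0.003), with -0.15 in NM-401 low and -0.165 in Mitsui high.

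Erg, the ETS factor that maintains endothelial identity, differed by -0.91 ± 0.14 (SE) in NM-401 high, -0.45 in NM-401 low, -0.50 in Mitsui high and -0.67 in Mitsui low. A second, dimmer Erg probe gave -0.27 in NM-401 high, -0.20 in NM-401 low, -0.23 in Mitsui high and -0.31 in Mitsui low. Its limma adjusted p was 0.0598, 0.217, 0.13 and 0.0405, so it passed the threshold in Mitsui low alone. Whether Erg passed in the other exposures therefore depended on the probe. Eng, a co-receptor for BMP ligands, differed by -0.88 ± 0.15, -0.57, -0.74 and -0.63 in the same order. Calcrl and Ramp2 together form the adrenomedullin receptor, and in NM-401 high they differed by -0.90 ± 0.21 and -0.43 ± 0.09. Under median centring the Ramp2 value in NM-401 high was 0.03, where the median of all features was 0.17.

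Icam2, an adhesion molecule, and Robo4, a guidance receptor, are surface genes of endothelium. Icam2 and Robo4 fell in all 4 exposures, by between -0.59 and -0.32 for Icam2 and between -0.44 and -0.26 for Robo4. Cldn5, the tight-junction claudin of endothelium, fell in NM-401 high (-0.37 ± 0.09, adjusted p = 0.00323) and lay between -0.21 and -0.09 elsewhere. Pecam1, the surface marker used most often to count endothelium, differed by -0.44 ± 0.16 in NM-401 high and -0.51 in Mitsui high, both past the threshold, and by -0.40 and -0.45 in NM-401 low and Mitsui low. The NM-401 high call for Pecam1 was lost in 7 of the 25 fits that leave out 1 animal.

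The value of Cdh5, VE-cadherin, turned on 1 array. In NM-401 low animal 1 its Cy5 spot read 68 over a background of 69, while on the other arrays it read 3288 to 15456, and the log2 ratio there was 0.34 against 5.90 to 6.24 in the other 4 animals of the group. With this spot in the fit, Cdh5 passed the threshold in none of the exposures (-0.68, -1.60, -0.25 and -0.40). With it left out, a choice made after seeing the data, Cdh5 fell in NM-401 high (-0.68 ± 0.14 SE, limma adjusted p = 0.000489), NM-401 low (-0.44, 0.0428) and Mitsui low (-0.40, 0.0461), and gave -0.25 in Mitsui high (0.206). The counts of called members were then 33, 19, 22 and 23. The share of all features in this fit is not given here.

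**Figure D3:**
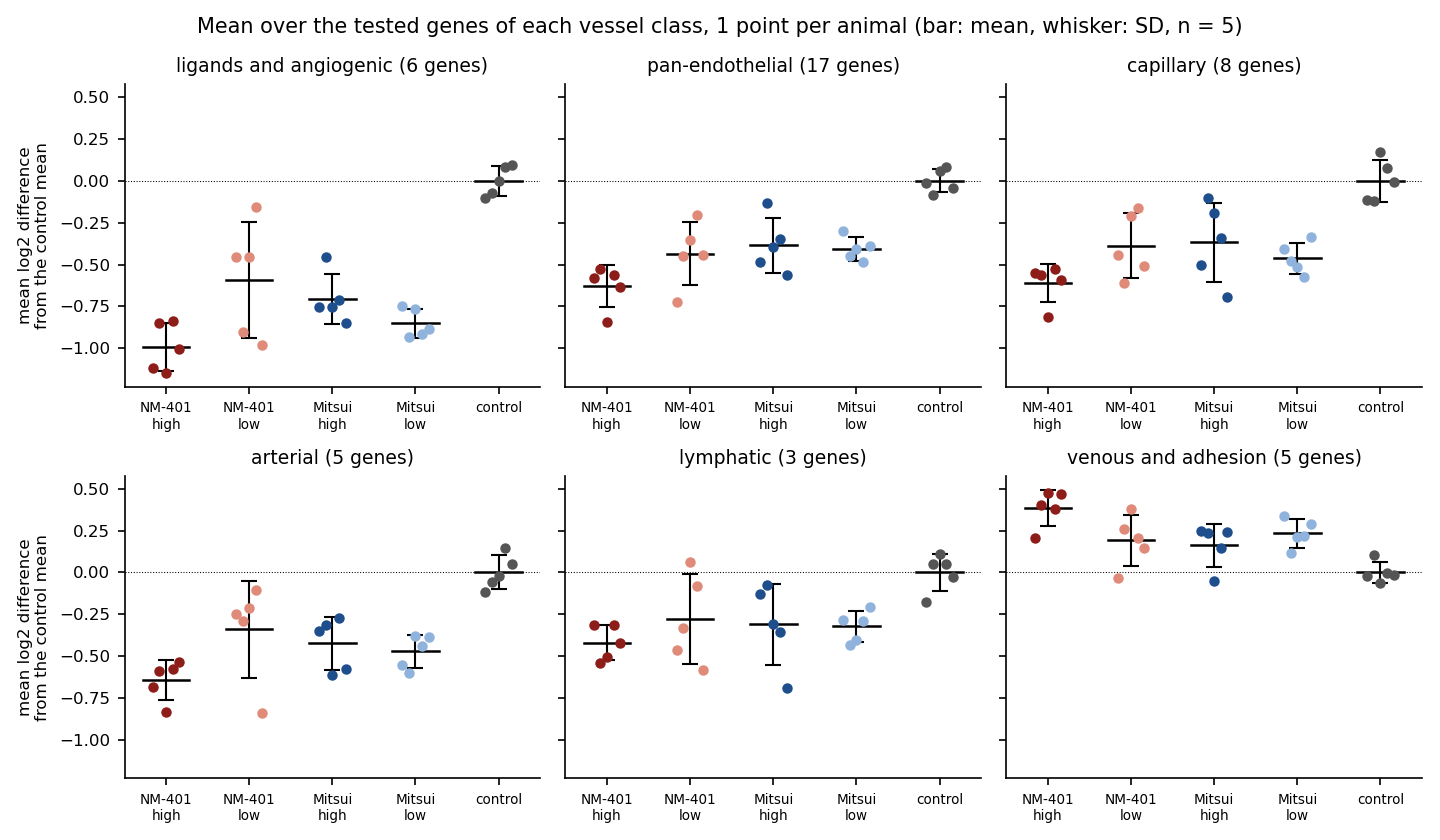
Mean difference from the control mean over the tested genes of each vessel class, for each animal of NM-401 high, NM-401 low, Mitsui high, Mitsui low and control (points are animals, bars are means, whiskers are SD, n = 5). In the ligand and pan-endothelial classes all 20 exposed animals lie below all controls, and in the venous and adhesion class 18 of 20 lie above them. Only Ackr1 and Selp were called in the venous and adhesion class, and Ackr1 met the filter only through the exposed groups.

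Set side by side, the class medians in NM-401 high were -0.81 for ligands, -0.65 for arterial, -0.58 for pan-endothelial, -0.55 for capillary, -0.17 for lymphatic and 0.27 for venous and adhesion genes, where the median of all features was near 0. In Mitsui low they were -0.71, -0.56, -0.40, -0.34, -0.03 and 0.11 in the same order. The classes hold 3 to 17 tested genes, and no test compares them. The venous and adhesion class includes Ackr1, which met the filter only through the exposed groups. Its median of 0.27 in NM-401 high was the value of Icam1, which did not pass the threshold. The venous and adhesion median was -0.05 in Mitsui high, so its direction differed between exposures, and under median centring it was -0.07 in Mitsui low. The lymphatic median was 0.08 in Mitsui high and -0.11 there under median centring. Under that scaling the median of all features also moved below 0 in both Mitsui groups, so these values are not read as a change of direction. Ligand, arterial, pan-endothelial and capillary medians were below 0 in all 4 exposures under every scaling run, with no shift of all features taken off.

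**Figure D4:**
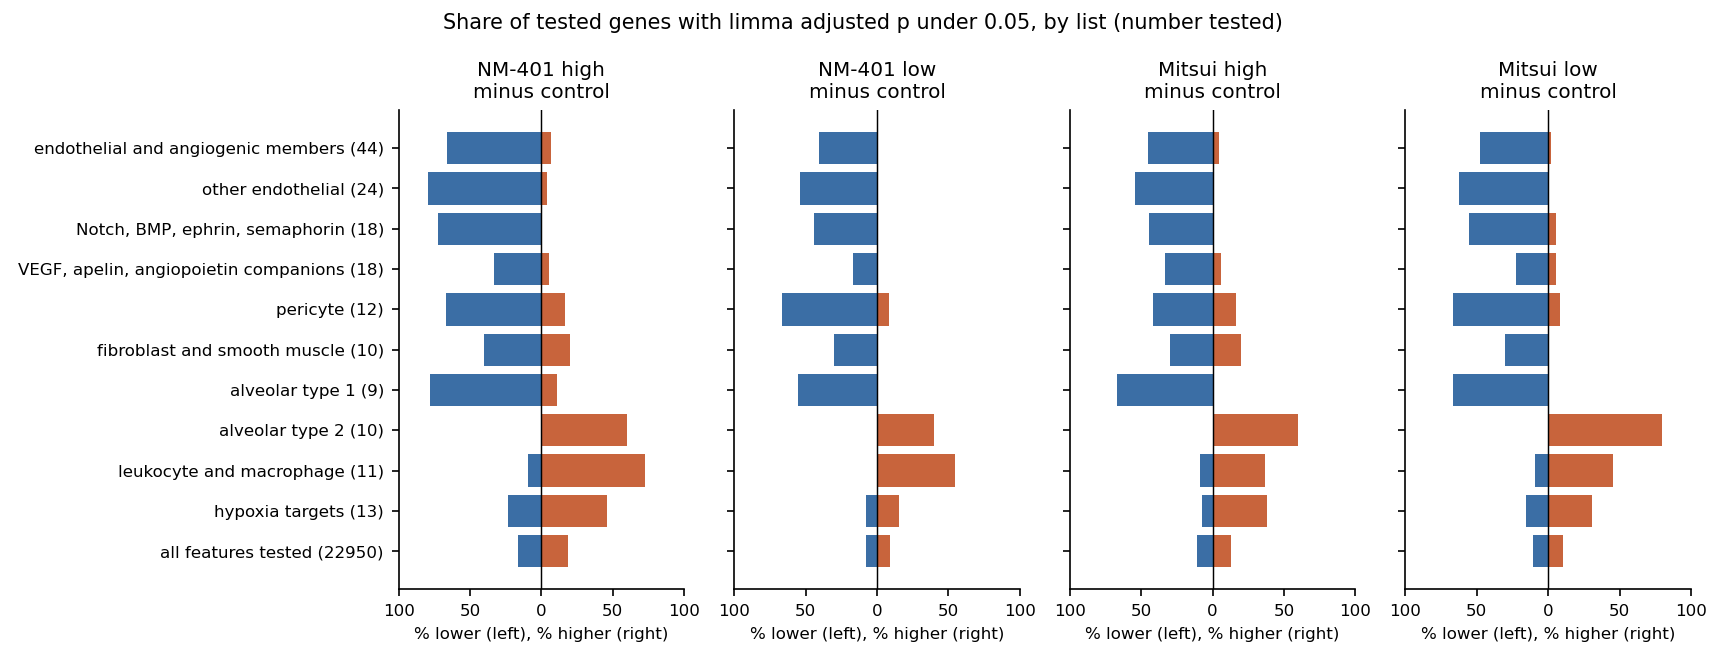
Percent of the tested genes that fell (left, blue) or rose (right, orange) at a limma adjusted p under 0.05 in NM-401 high, NM-401 low, Mitsui high and Mitsui low lungs against control, for the members, companion lists and all features. Vessel, pericyte and alveolar type 1 lists lean to the left, and alveolar type 2 and leukocyte lists to the right, in all 4 panels.

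Vessel genes outside the set were also counted. The lists were chosen with earlier results of these data known, so they are no independent check. Of all features, 16.4%, 8%, 11% and 10.4% fell in NM-401 high, NM-401 low, Mitsui high and Mitsui low. In the same order, 18.4%, 8.95%, 12.7% and 10.6% rose. Of 24 other endothelial genes, 19 fell and 1 rose in NM-401 high, and 13, 13 and 15 fell in NM-401 low, Mitsui high and Mitsui low. Examples in NM-401 high were S1pr1, a receptor that tightens the vessel barrier (-1.26), Cyyr1 (-1.18), She (-0.98) and the lectin Clec1a (-0.93). Of 18 genes of Notch, BMP, ephrin and semaphorin signalling in vessels, 13, 8, 8 and 10 fell in NM-401 high, NM-401 low, Mitsui high and Mitsui low. Among them in NM-401 high were Smad6, an inhibitor of BMP signalling (-1.56), the arterial ephrin Efnb2 (-1.40), the BMP receptor Bmpr2 (-1.06) and the venous factor Nr2f2 (-0.69).

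The wider VEGF, apelin and angiopoietin pathway was counted too, against the same shares of all features. Of 18 companions, 6, 3, 6 and 4 fell in NM-401 high, NM-401 low, Mitsui high and Mitsui low, and 1 rose in each of NM-401 high, Mitsui high and Mitsui low (Ramp1). Vegfd, another lymphatic growth factor, fell in all 4 exposures, by -1.44 in NM-401 high. Ece1, which activates endothelin, and the peptide Adm differed by -0.67 and -0.91 in NM-401 high, and the Notch ligand Dll1 by -0.79. Of 13 hypoxia targets, 6 rose and 3 fell in NM-401 high. Ldha, lactate dehydrogenase, and Ankrd37 rose there by 0.61 and 0.80, while Hilpda fell by 1.18 on the log2 scale.

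Markers of other lung cells also differed, in both directions. The shares of all features given above apply to these lists as well, which were chosen in the same way. Of 12 pericyte genes, 8 fell and 2 rose (Cspg4 and Abcc9) in NM-401 high, with Higd1b at -0.81 and Trpc6 at -0.89, and Pdgfb, the endothelial ligand that recruits pericytes, at -0.58. Of 9 alveolar type 1 genes, 7, 5, 6 and 6 fell in NM-401 high, NM-401 low, Mitsui high and Mitsui low, with Cav1, which endothelium also expresses, at -1.101 and Aqp5 at -0.66 in NM-401 high, where Pdpn rose (0.45). Of 10 fibroblast and smooth muscle genes, 4, 3, 3 and 3 fell, among them Pdgfra (-1.38) and Tcf21 (-1.42) in NM-401 high. In the same list 2, 0, 2 and 0 rose, namely the collagens Col1a1 (0.55 in NM-401 high and 0.38 in Mitsui high) and Col1a2 (0.47 and 0.36 in the same groups). Of 10 alveolar type 2 genes, 6, 4, 6 and 8 rose, with Lamp3 at 0.86 in NM-401 high.

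Leukocyte and macrophage markers mostly rose in NM-401 high. Of 11 tested, 8, 6, 4 and 5 rose in NM-401 high, NM-401 low, Mitsui high and Mitsui low, with Cd14 at 2.87, Adgre1 at 1.92 and Itgax at 1.55 in NM-401 high. Siglecf, a marker of alveolar macrophages and eosinophils, fell in NM-401 high (-0.87), Mitsui high (-0.77) and Mitsui low (-0.90). The mean over this list, relative to the control mean, ran from 0.83 to 0.99 in NM-401 high animals, 0.50 to 0.78 in NM-401 low, 0.47 to 0.85 in Mitsui high and 0.64 to 0.82 in Mitsui low, against -0.08 to 0.13 in controls. The mean over all members ran from -0.71 to -0.47, -0.52 to -0.12, -0.54 to -0.15 and -0.47 to -0.34 in the same exposed groups, against -0.07 to 0.08 in controls. The part of these other cell types in the members' differences was not tested. Of 4 red blood cell genes, 2 fell in NM-401 high, NM-401 low and Mitsui high and 0 in Mitsui low. Liver and heart genes, as markers of adjoining tissue, passed the threshold for 1 of 11 in NM-401 high, which was lower, and for 0 in the other exposures. In the Cy3 signal of the common reference alone, 6 of 44 members were called in NM-401 high, against 123 of 22950 features, and 0, 0 and 1 in NM-401 low, Mitsui high and Mitsui low, against 21, 32 and 35 features. The members' median difference was -0.07, -0.04, -0.10 and -0.08 in Cy3 alone and -0.82, -0.46, -0.48 and -0.62 in Cy5 alone, and the part of the reference signal in the calls was not tested.

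The dose question was asked within each material. Between NM-401 high and NM-401 low, 5 members fell and 0 rose, where 1.15% of all features fell and 2.69% rose (3.84% called in all). They were Esm1 (-1.41 ± 0.29 SE, limma adjusted p = 0.011), Egfl7 (-0.44 ± 0.105, 0.0221), Hey1 (-0.51 ± 0.14, 0.0364), Flt1 (-0.51 ± 0.145, 0.0486) and Ptprb (-0.57 ± 0.16, 0.0499). For each of these the NM-401 high and NM-401 low animals overlapped: 0 of the 44 members were separated in either direction, against 1.32% of all features that were lower and 2.37% that were higher in every NM-401 high animal. The member count ran from 1 to 8 when 1 animal was left out: it was 1 without NM-401 high animal 3 and 8 without NM-401 high animal 2. With slide as a block it was 10. The share of all features under these fits is not given here. Of the 44 members, 35 had a negative sign in this comparison, against 11367 of 22950 features.

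Between Mitsui high and Mitsui low, 0 members and 0% of features passed the threshold. An unadjusted p under 0.05 was found for 5 of 44 members and 1243 of 22950 features. Signs of the members were negative for 20 and positive for 24, and 11201 of 22950 features had a negative sign. Esm1 differed by 0.24 ± 0.29 (SE) and Egfl7 by 0.29 ± 0.105 there. The 95% interval of the Mitsui dose difference was -0.36 to 0.84 for Esm1, so a difference of either sign is allowed by the data.

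**Figure D5:**
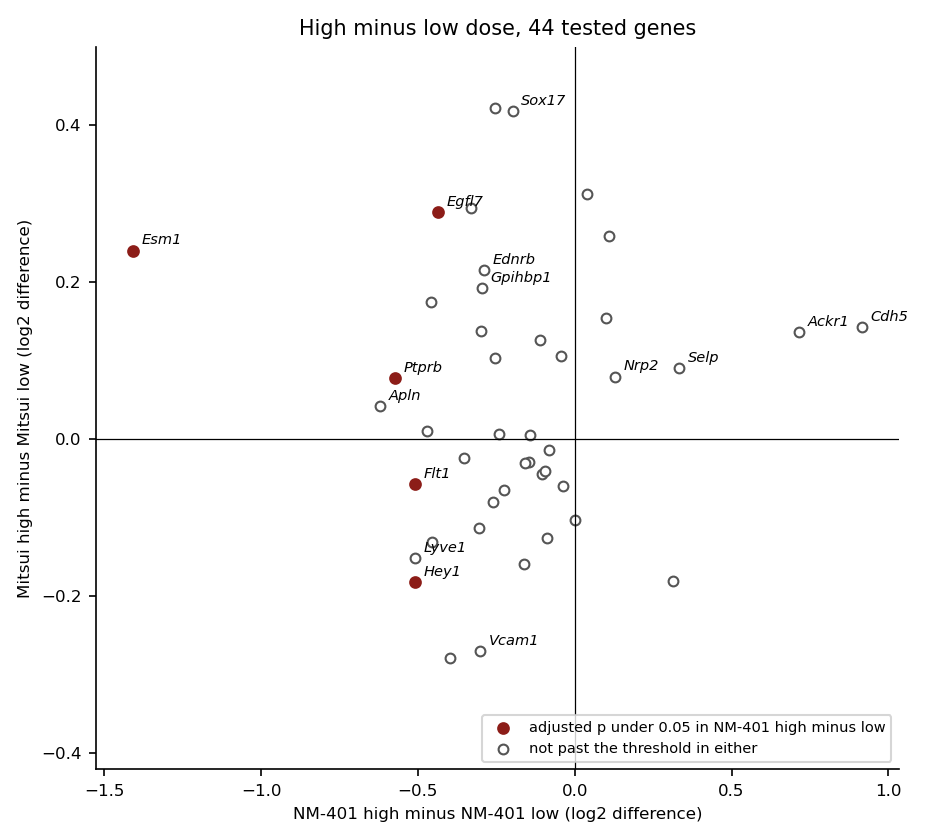
High minus low dose as a log2 difference for the 44 tested members, in NM-401 (horizontal axis) and Mitsui (vertical axis), 5 animals per group. The 5 filled genes, Esm1, Egfl7, Hey1, Flt1 and Ptprb, passed the threshold in NM-401, 0 did in Mitsui, and the Cdh5 point holds the failed spot of NM-401 low.

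Whether the dose step differed between the materials was tested as an interaction. Of the members 0 passed the threshold, against 0.0305% of all features. An unadjusted p under 0.05 was found for 13 of 44 members and 2923 of 22950 features. Egfl7 had the smallest p, with an interaction of -0.73 ± 0.15 (SE, limma adjusted p = 0.0691), and passed the threshold with slide as a block. Esm1 gave -1.65 ± 0.41 (adjusted p = 0.0989) and Gpihbp1 -0.49 ± 0.12 (0.108). So a dose step past the threshold in NM-401 and not in Mitsui was not shown to differ between the materials.

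The materials were also set against each other at 1 dose. Between NM-401 high and Mitsui high, 0 members passed the threshold against 0.793% of all features, 20 had an unadjusted p under 0.05 and 37 of 44 had a negative sign. Of 22950 features, 3954 had such a p and 11371 a negative sign. Egfl7 (-0.42 ± 0.105 SE, limma adjusted p = 0.0588), Hey1 (-0.52 ± 0.14, 0.0658) and Gpihbp1 (-0.33 ± 0.09, 0.0725) had the smallest p. With slide as a block 4 members passed, namely Vegfa, Egfl7, Erg and Hey1. Without Mitsui high animal 5 the count was 9. The share of all features under these fits is not given here, so neither count is read as a material difference. Between NM-401 low and Mitsui low, 0 members and 0% of features passed, and 4 members had an unadjusted p under 0.05, of which Sox17 had the smallest. Such a p was found for 1287 of 22950 features.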

How the data were processed

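Lung RNA of 25 mice was hybridised on 26 two-colour Agilent arrays, with each animal in Cy5 and a universal mouse reference RNA in Cy3. Mitsui low animal 5 was on 2 arrays, which were averaged. Per the file headers, spots were quantified with Agilent Feature Extraction 11.0.1.1, which gave the deposited intensity values and a log10 ratio of each spot. The deposited value table of the authors holds log2 ratios, whose exact normalization is not given in the sources used here. Its columns had medians of -0.04 to -0.0181, ran in the same direction as the ratios computed here (correlation 0.988 to 0.998, slope 0.999 to 1.09), and served as an alternative.

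Median intensities were background-corrected with normexp (offset 50) and normalized within each array by loess, after control spots and 0.461% of spots called outliers were removed. Probes were named through their RefSeq accession, and the brightest probe stood for a gene. A feature was kept when its Cy5 signal cleared the background test in 4 or more animals of any group (22950). Group means were fitted over all 25 animals with limma 3.58.1 in R 4.3.3, with 9 contrasts and Benjamini-Hochberg adjustment over all features. Called means an adjusted p under 0.05. In data simulated for NM-401 high against control, with 200 of 22950 features changed, 61% of changes of 0.5 and 97% of changes of 1 (log2) were recovered. In the real comparison 7976 features were called, so these rates are not the power of these data. The number of arrays limits the precision, and the labels do not give litters or cages. Same-numbered animals of different groups correlated between -0.382 and 0.412 (median -0.00265). Other-numbered animals of different groups correlated between -0.373 and 0.422 (median -0.0146), so replicate numbers were not treated as pairs.

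Values of every animal are given for the 7 members with the largest called differences in NM-401 high, the 3 called with the largest change against the direction of most members, up to 2 called per dose or material comparison with the smallest p, and the largest called change of each vessel class. From each companion list up to 4 called genes with the smallest p in NM-401 high were named. Other members are given by role. The members and lists were chosen with earlier results of these data known. Alternatives covered background correction, normalization, filter, probe choice, slide and replicate blocks, and each animal left out. The failed Cdh5 spot and the Cy5 signal alone were added after seeing the data.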

Additional observations from a re-analysis of the deposited data

Results flagged for a closer look

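Of 220 sets of 5 values (44 members in 5 groups), 15 held an animal far from the other 4 by Dixon's test, where chance gives about 1 in 20. The widest gap was that of Cdh5 in NM-401 low animal 1, at 0.34 on the log2 ratio scale, with the failed spot described above.

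In NM-401 high, Flt4 in animal 3 was 0.11 (others 0.41 to 0.47), Calcrl in animal 3 was 1.84 (others 2.54 to 2.73) and Egfl7 in animal 4 was 4.71 (others 4.44 to 4.505). In NM-401 low, animal 5 was low for Erg at 1.81 (others 2.28 to 2.45), for Gja4 at 4.31 (others 4.655 to 4.77) and for Gja5 at 3.75 (others 4.52 to 4.65), and animal 2 was low for Ramp2 at 4.89 (others 5.12 to 5.21).

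In Mitsui high, Vwf in animal 2 was 5.99 (others 5.61 to 5.685), Icam1 in animal 3 was 2.43 (others 2.94 to 3.135) and Dll4 in animal 5 was 2.12 (others 2.57 to 2.75). In Mitsui low, Robo4 in animal 4 was 4.84 (others 5.02 to 5.09) and Vcam1 in animal 1 was 0.71 (others 0.28 to 0.39). Among controls, Gja5 in animal 4 was 5.15 (others 4.82 to 4.90) and Calcrl in animal 5 was 2.41 (others 3.40 to 3.79).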

How the results depend on the processing

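Median centring in place of loess left 3, 0, 0 and 0 called members in NM-401 high, NM-401 low, Mitsui high and Mitsui low and 0 for the NM-401 dose step, and turned Ramp2 in NM-401 high to 0.025. All features called there were 1064, 62, 121 and 74, and the cause was not tested. The scanner software's ratios gave 11 in NM-401 low and 14 in Mitsui low, and turned Tek to 0.22 in NM-401 high and 0.074 in Mitsui low. The NM-401 dose count was 8 without background correction, 8 with the authors' matrix, 3 without a filter, 10 with slide as a block, 3 without the repeated array and 13 with Cy5 alone. Esm1, Egfl7 and Hey1 were called in each of these 6. Between NM-401 high and Mitsui high the count was 1 with the authors' matrix (Hey1), 4 with the slide block, 1 with the replicate block (Hey1) and 3 with Cy5 alone (Cldn5, Egfl7 and Hey1), and for the interaction it was 1 with the slide block (Egfl7). The replicate block gave 30, 17, 22 and 22 members in the exposures and 6 for the NM-401 dose step. Apart from those of median centring, the counts here stand without the share of all features under the same fit. With 1 animal left out the counts ran from 29 to 33 in NM-401 high, 12 to 20 in NM-401 low, 17 to 23 in Mitsui high, 19 to 24 in Mitsui low, 1 to 8 for the NM-401 dose step, 0 to 9 between NM-401 high and Mitsui high and 0 to 3 for the interaction (3 without Mitsui high animal 5). Of 94 called values, 90 kept their direction but missed the threshold under median centring and 1 turned. Under the scanner ratios 30 missed it and 2 turned, and under the authors' matrix 5 missed it.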
